A study of Mus musculus with 36 samples.

Results

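Genes of the mitochondrial respiratory chain were followed in the brains of control and Tpp1-/- mice. They were every protein-coding gene whose symbol starts with mt-, with Nduf followed by a, b, c, s or v, with Uqcr or with Cox4 to Cox8, together with Sdha, Sdhb, Sdhc and Sdhd. The rule found 89 genes of the 55561 listed in any of the annotations used, 76 of them nuclear and 13 encoded by mitochondrial DNA. By symbol alone, the nuclear genes comprised 38 complex I subunits, 8 complex I assembly factors named Ndufaf, 4 complex II subunits, 8 complex III genes and 18 complex IV genes. Ndufa4 and its paralogue Ndufa4l2 are among the 38 by name only. The mitochondrial genes comprised 7 subunits of complex I, 1 of complex III, 3 of complex IV and 2 of ATP synthase. Genes were matched between ages by identifier, since Ndufaf8 carried another name in the annotation used at 3 months.

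Tpp1-/- mice carry a targeted disruption of Tpp1 and are a model of CLN2 disease, a lysosomal storage disorder caused by loss of tripeptidyl peptidase 1. Total RNA of the forebrain and midbrain together (F/M) and of the cerebellum (Cb) was sequenced from age-matched siblings at 1, 2 and 3 months of age, with 3 control and 3 Tpp1-/- libraries for each region and age, 36 in all. Controls were wild type except replicate 3 at 1 month, which was Tpp1+/- in both regions. Labels give replicate 1 at 1 month as female, all mice at 2 months as male and replicate 3 at 3 months as female, in both genotypes. Each library held between 10609896 and 29942380 counted reads, with a median of 21049839. Tpp1 was at 16.1 to 27.8 CPM (counts scaled to a library of one fixed size) in the Tpp1-/- libraries and at 42.1 to 111 CPM in the controls, with no overlap. All 10 cerebellum markers, such as Pcp2 and Cbln1, were higher in every Cb library than in any F/M library at each age. Of 10 forebrain markers, 9 were higher in every F/M library and 1 was higher in every Cb library, at each age. These are whole regions, so fewer cells of a type and less RNA per cell cannot be told apart.

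The respiratory chain passes electrons from NADH, through complex I, or from succinate, through complex II, to complex III, then by cytochrome c to complex IV, where oxygen is reduced to water. Complexes I, III and IV pump protons across the inner mitochondrial membrane, and ATP synthase uses the resulting gradient. Complex II is made of nuclear-encoded subunits alone, whereas the other complexes combine subunits from the nuclear and the mitochondrial genome, which are transcribed by separate polymerases. Neurons rely heavily on this pathway, and the stored material of CLN2 disease is rich in subunit c of ATP synthase.

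Before any level could be read, the sequence of the mitochondrial genes had to be set beside that of their nuclear copies. Stretches of mitochondrial DNA that were copied into chromosomes during evolution are annotated as pseudogenes, and a read that matches both places cannot be assigned to one of them. The file headers name options that share such a read out as fractions, yet every deposited count was a whole number, so how these reads were counted is not known here. A run of 7 such pseudogenes lies on the minus strand of chromosome 1, between chr1:24611535-24616197 (mm10). The stretches below show 3 degrees of likeness between a mitochondrial gene and its copy. Capitals mark the bases that differ within a pair.
mt-Co2 (chrM:7073-7152, + strand): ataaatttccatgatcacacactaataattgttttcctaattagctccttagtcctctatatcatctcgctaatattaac
Gm28661 (chr1:24615426-24615505, - strand): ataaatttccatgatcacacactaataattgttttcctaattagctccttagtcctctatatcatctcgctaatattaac
mt-Nd3 (chrM:9459-9538, + strand): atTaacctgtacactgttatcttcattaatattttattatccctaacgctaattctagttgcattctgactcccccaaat
Gm28438 (chr1:24613040-24613119, - strand): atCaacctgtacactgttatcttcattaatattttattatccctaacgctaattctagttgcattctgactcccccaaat
mt-Co1 (chrM:6390-6437, + strand): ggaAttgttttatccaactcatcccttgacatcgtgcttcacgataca
Gm29216 (chr1:24616141-24616188, - strand): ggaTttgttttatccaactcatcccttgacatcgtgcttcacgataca
mt-Nd5 (chrM:12642-12721, + strand): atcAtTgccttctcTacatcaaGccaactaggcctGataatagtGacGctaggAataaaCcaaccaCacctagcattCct
Gm4076 (chr13:85127240-85127319, - strand): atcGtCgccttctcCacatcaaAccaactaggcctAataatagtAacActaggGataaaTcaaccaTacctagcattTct
The mt-Co2 stretch and its copy Gm28661 were identical, as they were over all 681 aligned bases. mt-Nd3 differed from Gm28438 by 1 base in 345 aligned, T3C, and mt-Co1 from Gm29216 by 1 in 483, A1066T, with positions counted from 1 at the first base of the mitochondrial gene. The mt-Nd5 stretch differed from Gm4076 on chromosome 13 by 11 of 80 bases, part of 45 differences over 953 aligned bases and an identity of 95.3%.

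Whether a single-end read of 50 bases could tell a gene from its copies was counted for every mitochondrial gene. For each, the share of its 50-base windows that also occur in a transcript of another annotated gene was counted. That share was 100% for mt-Co2, 99.9% for mt-Co3, 99.5% for mt-Atp6, 98.8% for mt-Nd4l and 98.0% for mt-Nd3. These 5 genes were at or near 0 in all 36 libraries: no library held more than 1 count of mt-Co2, mt-Co3, mt-Nd3 or mt-Nd4l, and none more than 4 of mt-Atp6. mt-Atp8, the short gene that lies between mt-Co2 and mt-Atp6, shared none of its windows with another annotated transcript and was also at 0 in all 36. The genome sequence between the chromosome 1 pseudogenes was not used here.

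The other 7 mitochondrial genes shared fewer of their windows and were abundant. mt-Nd4 shared 62.2% and mt-Co1 51.1%, mt-Nd2 8.19% and mt-Nd5 7.61%, and mt-Nd1, mt-Nd6 and mt-Cytb shared none. The copies themselves held few counts: 6 of the 7 on chromosome 1 reached at most 13 in any library. The exception was Gm28438, the near copy of mt-Nd3, with 13 to 523 counts and a median of 206.5 over the 36 libraries. Gm28661, identical to mt-Co2, held at most 10 counts, so reads common to both were seen under neither name. The counts of the 6 genes near 0 give no level of these transcripts.

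**Figure D1:**
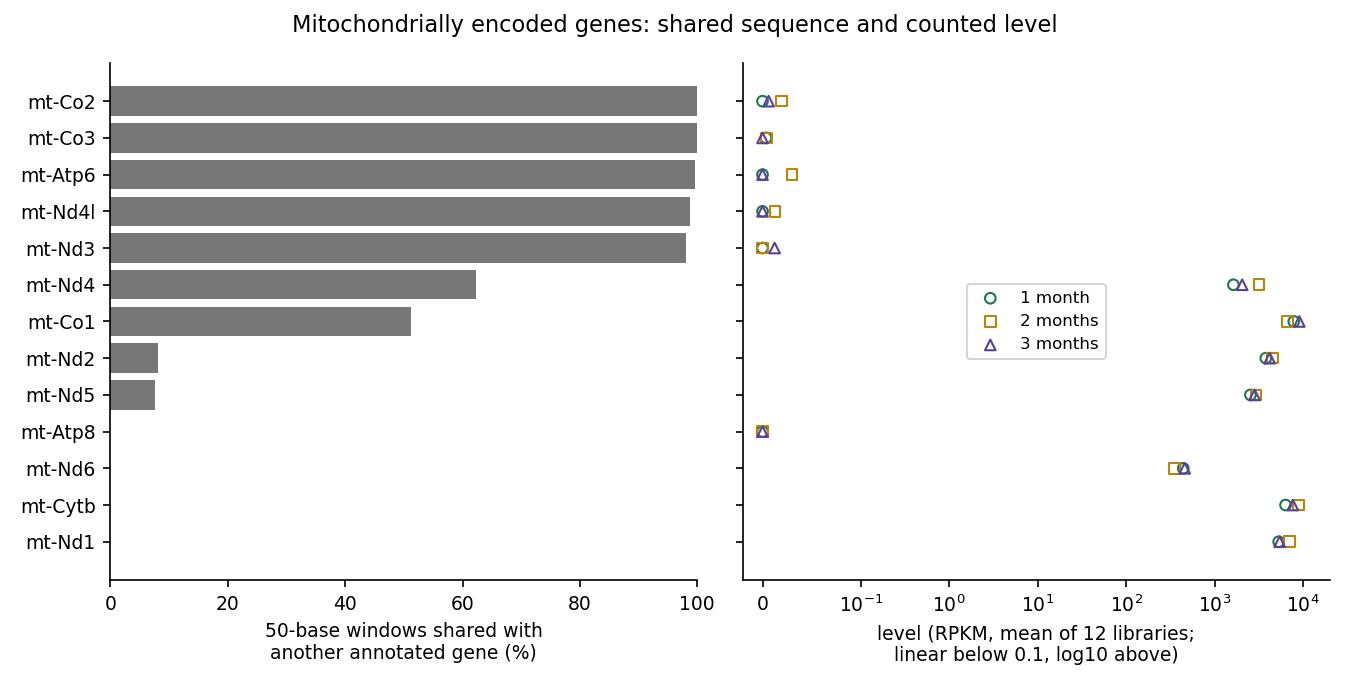
Left, the share of each mitochondrial gene's 50-base windows found in another annotated gene (%); right, its level per length (RPKM, mean of the 12 libraries of an age; axis linear below 0.1 and log10 above). The 5 genes with at least 98.0% shared windows, and mt-Atp8, lie at or near 0, and the 7 others between 352 and 9053 RPKM.

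Of the nuclear genes, 61 had an entry in a RefSeq promoter table (GRCm38.p6, 250 bases before to 50 after the start of the gene). Promoters of these genes are known for sites of NRF1, of ETS factors such as GABP and of YY1, and 3 fixed words were searched on both strands. The NRF1 word, printed in capitals in the Cox6a1 promoter, was in 5 of 61 promoters (8.20%) and in 0.962% of all 27025. The ETS word CCGGAAGT was in 4 (6.56%, against 3.93%) and the YY1 word AAGATGGC in 8 (13.1%, against 2.86%). At least 1 of these words was in 17 of 61, or 27.9%, against 7.47% of all promoters, whereas TATAAA was in 9.84% against 14.1%. The members' promoters also held more G and C, with a median of 58.3% against 52.7%. The promoters of Cox6a1 and Cox8a are shown because these are the abundant forms beside the isoforms on which the results below turn. Capitals mark the NRF1 word in the first and the ETS word, on the reverse strand, in the second.
Cox6a1 promoter (chr5:115348909-115349208, - strand): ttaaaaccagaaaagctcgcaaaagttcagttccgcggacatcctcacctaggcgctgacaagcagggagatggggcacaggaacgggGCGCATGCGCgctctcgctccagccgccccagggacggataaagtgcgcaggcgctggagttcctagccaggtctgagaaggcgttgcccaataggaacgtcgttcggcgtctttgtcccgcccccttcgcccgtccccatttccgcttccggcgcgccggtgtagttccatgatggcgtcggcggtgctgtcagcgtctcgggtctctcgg
Cox8a promoter (chr19:7217567-7217866, - strand): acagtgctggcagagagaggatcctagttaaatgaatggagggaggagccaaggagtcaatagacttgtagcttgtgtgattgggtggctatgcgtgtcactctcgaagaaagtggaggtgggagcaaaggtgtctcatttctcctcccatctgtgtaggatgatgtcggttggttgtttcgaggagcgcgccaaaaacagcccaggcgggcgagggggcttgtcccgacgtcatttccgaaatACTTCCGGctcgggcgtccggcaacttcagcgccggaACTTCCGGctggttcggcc

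Per length, the mitochondrial genes stood about 2 orders of magnitude above the nuclear ones. In control F/M the median level of the nuclear genes tested was 31.3, 34.2 and 36.3 RPKM (normalised CPM per kilobase of exon) at 1, 2 and 3 months, and that of the 7 mitochondrial genes 4216, 4382 and 4317 RPKM. In control Cb the nuclear medians were 34.2, 37.6 and 43.1 RPKM and the mitochondrial ones 3482, 4327 and 3985 RPKM. Cox8a, a small subunit of complex IV, was the highest nuclear gene in both regions at each age, at 263 to 451 RPKM in control F/M. mt-Co1, the catalytic subunit of complex IV, was the highest mitochondrial gene at 1 and 3 months and mt-Cytb, the mitochondrial subunit of complex III, at 2 months. mt-Nd6, whose gene lies on the opposite strand from the other mitochondrial protein genes, was the lowest of the 7, at 295 to 521 RPKM in the control means. Since mt-Nd4 and mt-Co1 share over 50% of their windows with copies, their levels are uncertain.

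Levels are given at each age separately because the ages were counted with different annotation releases and settings, and the part of age in a level cannot be told apart from that of the processing. Of the 80 members tested at all ages, 79 had a mean at 3 months within 1.5-fold of that at 1 month, and 73 had a mean at 2 months within 1.5-fold of the mean of the other ages. At 2 months 7 lay outside it, among them Cox7c, a complex IV subunit, at 4.06 CPM against 19.0 and 19.2 CPM at 1 and 3 months. Ndufs5, of complex I, was at 7.51 CPM against 14.2 and 15.3 CPM. Ndufb4 was at 6.93 CPM against 2.95 and 2.91 CPM, Uqcr11, of complex III, at 41.5 against 18.2 and 23.4 CPM, and mt-Nd4 at 4372 against 2244 and 2822 CPM. Ndufb3 was at 30.8 against 45.0 and 54.2 CPM, and Cox6c at 94.8 against 141 and 163 CPM. Between 6.27% and 62.2% of the windows of these 7 genes occur in another annotated gene (median 18.3%), and between 0.0 and 64.1% of those of the other 73 (median 0.0%). No test was made of levels across ages.

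The nuclear genes together took 0.474 to 1.02% of the counted reads of a library (median 0.561%) and the mitochondrial ones 2.51 to 5.69% (median 4.01%). The log2 ratio of nuclear to mitochondrial counts ran from -3.44 to -1.96. It was higher in Cb than in F/M at each age, by 0.70, 0.43 and 0.43 in order of age, against a pooled SD within region of 0.20, 0.18 and 0.27 (6 libraries a region). The difference exceeded that spread at each age. The regions overlapped at 2 months, where control Cb replicate 2 lay below control F/M replicate 2. The difference was 0.53 at 1 month and 0.18 at 3 months without the pairs of Cb libraries named below, with pooled SDs of 0.07 and 0.05. Those libraries were chosen for their extreme ratio, so the smaller SDs follow from the choice.

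Between genotypes the ratio differed less. In F/M it was -3.03 ± 0.06 in controls and -3.01 ± 0.09 in Tpp1-/- at 1 month (SD, n = 3). The corresponding values were -2.92 ± 0.15 and -3.22 ± 0.22 a month later and -2.89 ± 0.06 and -2.94 ± 0.03 at the last age. In Cb it was -2.49 ± 0.08 and -2.16 ± 0.31 at 1 month, then -2.66 ± 0.15 and -2.62 ± 0.02, then -2.51 ± 0.45 and -2.47 ± 0.41. The differences of -0.30 in F/M at 2 months and 0.33 in Cb at 1 month were larger than the pooled SD of 0.19 and 0.23, and the ranges overlapped in both. The first was -0.185 without Tpp1-/- replicate 1, and the second 0.51 without Tpp1-/- replicate 3. The second was -0.03 without Tpp1-/- replicates 1 and 2, with 1 Tpp1-/- library left and no SD for it.

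Several Cb libraries stood apart in this ratio, and the regional and Cb results at 1 and 3 months were also computed without them. They were picked by this ratio after seeing the data. The spread without them is therefore smaller by choice, and the p-values given without them are not independent evidence. In Cb at 1 month, Tpp1-/- replicates 1 and 2 were at -1.99 and -1.96 and replicate 3 at -2.52, within the range of the controls. In Cb at 3 months, control replicate 3 was at -1.99 and Tpp1-/- replicate 1 at -2.001, while the other 4 libraries lay between -2.79 and -2.69. Without those 2 libraries the Cb means were -2.77 in controls and -2.70 in Tpp1-/-, a difference of 0.06 (n = 2 each). Control replicate 3 held the smallest mitochondrial share of these 6, 2.89%, and Tpp1-/- replicate 1 the largest nuclear share of all 36. Tpp1-/- replicate 1 was also the library with the most reads of other short protein-coding genes, under 1000 bases of exon, at 0.896% of its counts against 0.474 to 0.619% in the other Cb libraries of that age. The summed level of 12 choroid plexus markers was 1556 CPM in control replicate 3 and 1737 CPM in Tpp1-/- replicate 1, against 847 to 1021 CPM in the others, and no marker was at 0 in the series. The part of these in the results was not tested.

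**Figure D2:**
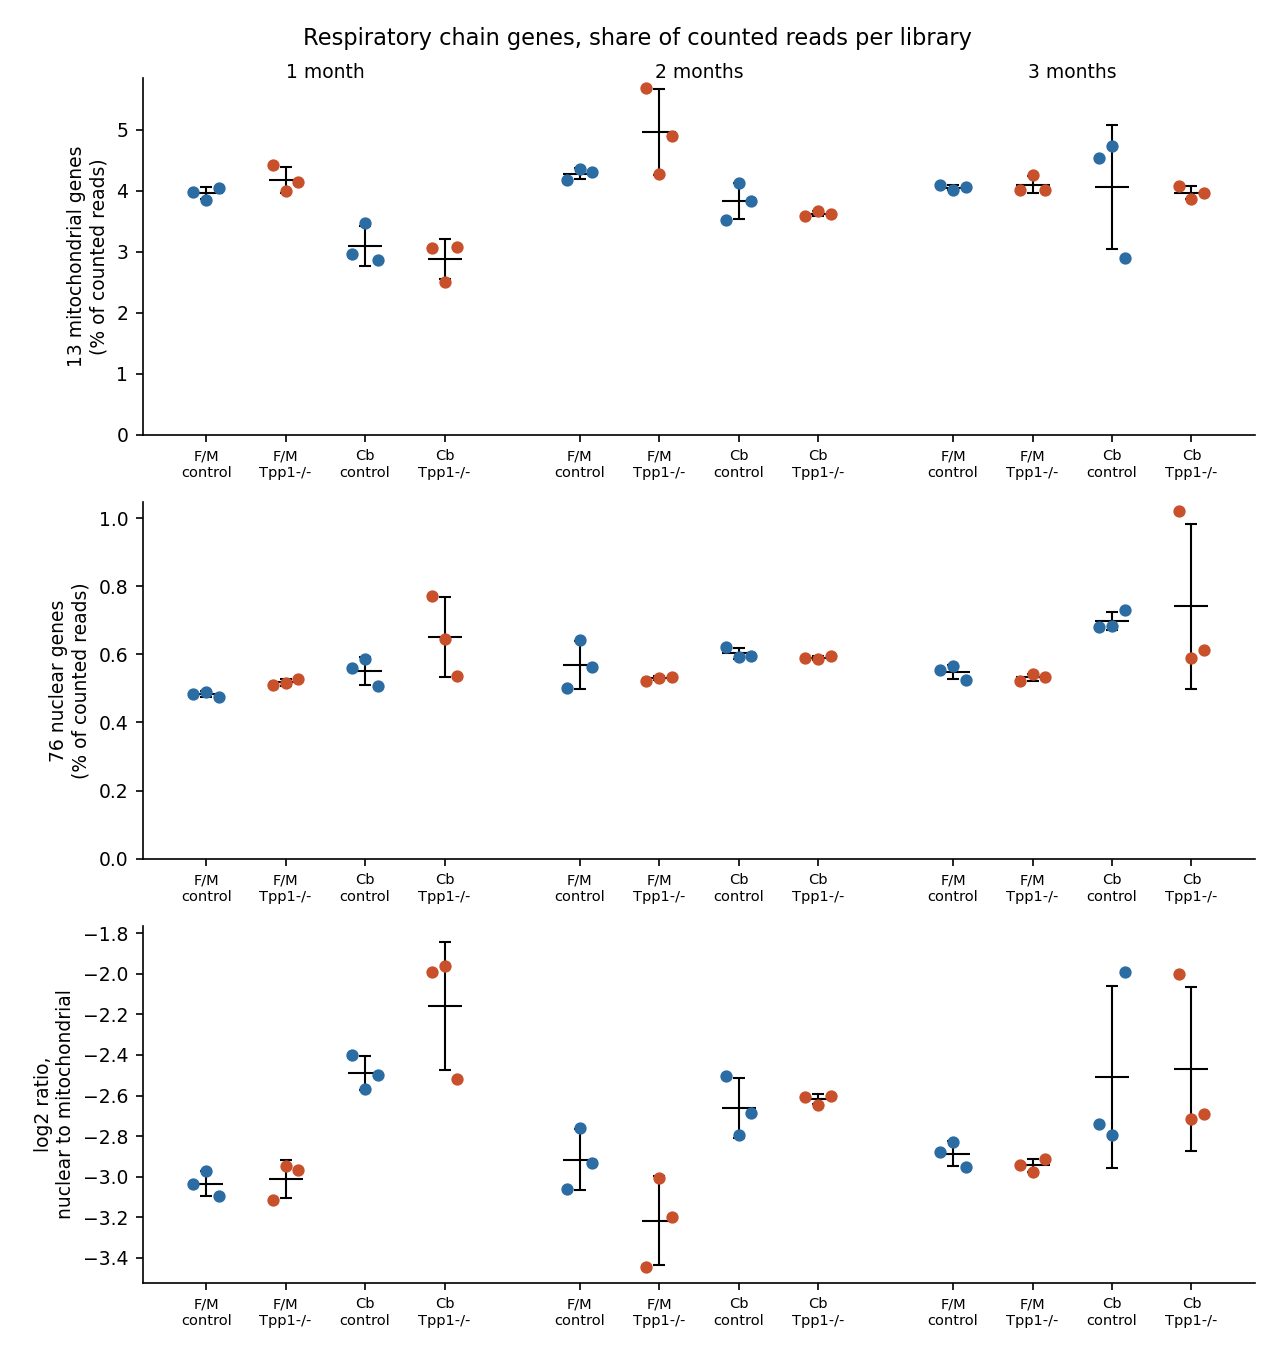
Share of counted reads (%) taken by the 13 mitochondrial genes (top) and the 76 nuclear genes (middle), and the log2 ratio of nuclear to mitochondrial counts (bottom), for each library; points are libraries, bars the mean and SD of 3. The mean ratio lies higher in Cb than in F/M at each age, and the regions overlap at 2 months. At 3 months 1 control and 1 Tpp1-/- library of Cb lie at -1.99 and -2.001 and the other 4 between -2.79 and -2.69.

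Expression was compared between regions in each age with 6 Cb and 6 F/M libraries, both genotypes included, using edgeR's quasi-likelihood test with Benjamini-Hochberg adjustment over all genes, and a gene was called at an adjusted p under 0.1. A gene enters the test only with enough reads, which 73, 75 and 74 of the 76 nuclear and 7 of the 13 mitochondrial genes had at 1, 2 and 3 months. The nuclear members lost at 1 or more ages were Cox7b2, Cox8b and Cox8c, and Cox8c held no count in any library, which allows up to 3 counts of the total in each. Cox6a2 at each age, and Cox7b2 and Cox8b at 2 months, reached the minimum level of the filter in 3 or more libraries of 1 region alone, so their entry into the test was not independent of the difference between regions. Most nuclear genes that were called were higher in Cb: 39 at 1 month, 30 at 2 months and 46 at 3 months. Those lower in Cb numbered 3, 12 and 2. The regions differed in most genes tested, since 70.7, 77.9 and 70.0% of them were called in either direction. Those called higher in Cb were 36.5, 38.6 and 36.7% of all genes tested. The 42 of 73, 42 of 75 and 48 of 74 nuclear members called, in either direction, made up a smaller share than all genes called. Where the fold also had to reach 1.5, 8, 7 and 8 members were called, against a background of 38.8, 40.1 and 39.4% of genes. The regions did not overlap in 23, 22 and 22 members, against 45.1, 53.7 and 45.5% of all genes.

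The mitochondrial genes lay in the opposite direction. All 7 tested were lower in Cb at 1 and 2 months, and 2 of the 7 at 3 months, where 34.1, 39.3 and 33.4% of all genes were lower. The median log2 fold change of the nuclear members was 0.21, 0.10 and 0.33, that of the mitochondrial members -0.44, -0.35 and -0.12, and that of all genes tested 0.030, -0.0042 and 0.047. Beside these, other short protein-coding genes had medians of 0.10, -0.04 and 0.24, and cytosolic ribosomal protein genes -0.10, -0.32 and 0.09. In control libraries alone, with 3 a region, 23 and 21 nuclear members were higher at 1 and 3 months, where 29.7 and 29.6% of all genes were higher, and 4 and 0 mitochondrial members were lower at 2 and 3 months, where 35.4 and 28.2% of all genes were lower. With both 3-month Cb libraries that stood apart left out, 43 nuclear members were higher and 9 lower and 3 mitochondrial members lower, and the medians were 0.14 and -0.03, while 79% of all genes were called. With Tpp1-/- Cb replicates 1 and 2 left out at 1 month, 26 nuclear members were higher and 12 lower, the nuclear median was 0.05 and all 7 mitochondrial members were still lower, with a median of -0.49, while 69.5% of all genes were called. That fit holds 1 Tpp1-/- Cb library, which is assumed to vary like the other groups.

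Markers of microglia, the resident immune cells, of choroid plexus, which makes cerebrospinal fluid, and of blood were read beside these values. The summed level of 10 microglia markers was 388 to 456 CPM in F/M against 144 to 198 CPM in Cb at 1 month, 400 to 536 against 160 to 191 CPM at 2 months and 438 to 618 against 156 to 488 CPM at 3 months. Every F/M library was above every Cb library in 10, 10 and 4 of these markers. Choroid plexus markers summed to 356 to 551 CPM in F/M and 264 to 1366 CPM in Cb at 1 month, to 249 to 754 and 1008 to 1833 CPM at 2 months, and to 582 to 801 and 847 to 1737 CPM at 3 months. Of the 12, 11, 12 and 9 had a higher mean in Cb, and every Cb library was above every F/M library in 0, 9 and 2 of them. All 5 blood markers had a higher mean in Cb at each age, and the regions overlapped in each of them. The part of these in the results was not tested.

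Grouped by symbol, complex I subunits made up most of the nuclear genes that were called. They were also most of those tested, at 38 of 73, 75 and 74. Of these 38 genes, 26, 17 and 29 were higher in Cb at 1, 2 and 3 months and 0, 6 and 0 lower. Of all genes, 36.5, 38.6 and 36.7% were higher. Ndufa4 and Ndufa4l2 are counted among the 38 by name only. Complex II had 3 of 4 higher at each age, complex III 4, 2 and 6 of 8, with 1 lower at 2 months, Uqcr11, and complex IV 6, 8 and 8 of 15, 17 and 16 tested, with 2, 4 and 1 lower. Without the pairs of Cb libraries that stood apart, 18 complex I subunits were higher and 3 lower at 1 month, and 27 higher and 4 lower at 3 months. In complexes II, III and IV those higher then numbered 3, 1 and 4 at 1 month and 3, 5 and 8 at 3 months, and those lower 1, 2 and 4 and 1, 0 and 3, Sdhb being the complex II gene lower at both ages. The 8 Ndufaf assembly factors, which help build complex I but are not part of it, had none higher and 1 lower at each age, and whether they differ from the subunits was not tested. That gene was Ndufaf7, a methyltransferase, at log2 fold changes of -0.34, -0.39 and -0.22 (SE 0.07, 0.06 and 0.07; adjusted p = 0.00058, 4.03e-06 and 0.0096 by edgeR).

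**Figure D3:**
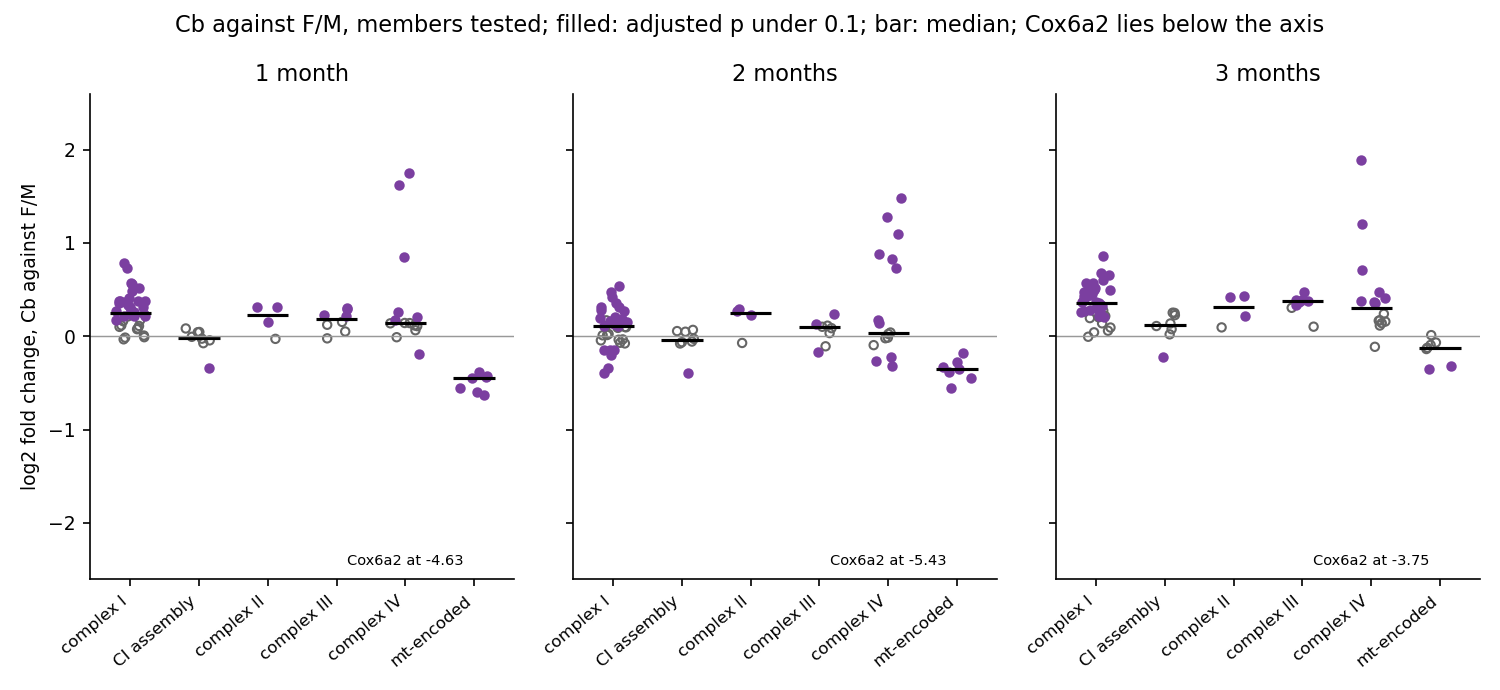
Log2 fold change of Cb against F/M for each member tested, by complex, at 1, 2 and 3 months; filled points have an adjusted p under 0.1, open points do not, bars are medians, and Cox6a2 lies below the axis at -4.63, -5.43 and -3.75. Complex I subunits lie mostly above 0 and the mitochondrially encoded genes below it at 1 and 2 months.

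Among the catalytic and core subunits most values were modest. Ndufs1, the largest iron-sulfur subunit of complex I, was higher in Cb by 0.22, 0.31 and 0.20 on the log2 scale, and Ndufv1, which binds NADH and FMN, by 0.31, 0.16 and 0.26. Without both 3-month Cb libraries that stood apart Ndufv1 was higher by 0.09 at that age (adjusted p = 0.011 by edgeR). Ndufv2, an iron-sulfur subunit beside Ndufv1, was higher by 0.17, 0.13 and 0.28, and by 0.17 at 3 months without those 2 libraries. Ndufa4, counted with complex I by symbol only and not a core subunit, was higher by 0.34, 0.20 and 0.57. Without those 2 libraries it was higher by 0.40 at 3 months. Its paralogue Ndufa4l2 was higher by 0.56 at 1 month, with 0.17 and 0.27 at 2 and 3 months, which did not pass. Without Tpp1-/- Cb replicates 1 and 2, Ndufv2 and Ndufa4l2 were not called at 1 month, at 0.11 and 0.43 (adjusted p = 0.134 and 0.108 by edgeR), and Ndufa4 was called at 0.18.

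The complex II subunits were split. Sdha, the flavoprotein that oxidises succinate, was higher in Cb by 0.15, 0.23 and 0.21 on the log2 scale, Sdhc, a membrane anchor, by 0.31, 0.30 and 0.43, and Sdhd, the other anchor, by 0.32, 0.27 and 0.42. Sdhb, the iron-sulfur subunit, was not called at any age with all libraries, at -0.03, -0.07 and 0.09. Sdhd was at 0.18 at 1 month without Tpp1-/- Cb replicates 1 and 2. In complex III the Rieske protein Uqcrfs1 was higher by 0.23, 0.24 and 0.39, and the core protein Uqcrc1 by 0.22 and 0.33 at 1 and 3 months, with 0.03 at 2 months, which did not pass. In complex IV, Cox4i1 was higher by 0.21 and 0.36 at 1 and 3 months, with -0.02 at 2 months, and Cox5a by 0.26, 0.17 and 0.38. Of these, Uqcrfs1, Uqcrc1, Cox4i1 and Cox5a were not called at 1 month without Tpp1-/- Cb replicates 1 and 2, with log2 fold changes of 0.04, 0.07, 0.0007 and 0.08 (adjusted p = 0.477, 0.187, 0.992 and 0.261 by edgeR). At 3 months, without both libraries that stood apart, these 4 were still called, at 0.24, 0.14, 0.10 and 0.15. Cox5b was higher by 0.15 and 0.47 at 2 and 3 months, with 0.14 at 1 month, which did not pass. In Tpp1-/- libraries alone its direction turned at 2 months. Cox7a2 was higher by 0.41 at 3 months, with 0.12 and -0.02 before, which did not pass. Cox7b was higher by 0.17 and 0.37 at 1 and 3 months, with 0.02 at 2 months, which did not pass, and at 1 month it was not called without Tpp1-/- Cb replicates 1 and 2 (0.04, adjusted p = 0.651 by edgeR). At 3 months without both libraries that stood apart, Cox5b, Cox7a2 and Cox7b were called at 0.23, 0.18 and 0.20. Cox6b1 did not pass at any age, at 0.06, -0.10 and 0.24.

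Of the mitochondrial genes, mt-Cytb and mt-Nd5 were the 2 past a fold of 1.5 at 1 month. mt-Cytb was at 8088 to 9330 CPM in F/M (median 8773) and at 5057 to 6574 CPM in Cb (median 5709) at 1 month, and at 10795 to 14447 against 8147 to 9339 CPM at 2 months. The regions did not overlap at these ages, but did at 3 months, at 8657 to 9480 against 6468 to 9694 CPM. Its log2 fold change was -0.60, -0.45 and -0.07 (SE 0.07 at 1 month), and the last did not pass. mt-Nd5, a proton-pumping subunit of complex I, was lower in Cb by 0.63, 0.33 and 0.32 on the log2 scale, mt-Nd6 by 0.44, 0.55 and 0.35, and mt-Nd1 at 1 and 2 months, at -0.55 and -0.38. At 3 months mt-Nd5 was at 3640 and 3217 CPM in the 2 Cb libraries that stood apart, at 4826 to 5679 CPM in the other 4 and at 5531 to 6059 CPM in F/M. Without those 2 libraries mt-Nd5 was at -0.15 and mt-Nd6 at -0.20, and both were still called (adjusted p = 4.27e-05 and 0.00139 by edgeR). The mitochondrial ribosomal RNAs, which are not members, were lower in Cb too: mt-Rnr1 by 0.72, 1.11 and 0.84 and mt-Rnr2 by 0.69, 0.93 and 0.72.

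The members with the largest regional differences were tissue-restricted isoforms of complex IV. Several complex IV subunits exist as a widely expressed form and a second form known from muscle, lung or testis. Cox6a2, the heart and skeletal muscle form (ENSMUSG00000030785, chr7:128205435-128206387, minus strand), was found almost solely in F/M. At 1 month it was at 4.05, 3.26 and 3.30 CPM in control F/M and 4.08, 3.92 and 2.88 CPM in Tpp1-/- F/M, and at 0.243, 0.0901 and 0.0671 CPM in control Cb and 0.188, 0.164 and 0.0904 CPM in Tpp1-/- Cb. No Cb library came near an F/M library at any age: the highest Cb value was 0.439 CPM and the lowest F/M value 1.92 CPM, both at 3 months. The log2 fold change was -4.63, -5.43 and -3.75 (SE 0.25, 0.30 and 0.23; adjusted p = 1.73e-10, 5.46e-12 and 3.42e-09 by edgeR). At 1 month the 6 Cb libraries held 2 to 6 counts each.

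Markers of skeletal and heart muscle moved with Cox6a2 in part. Their sum was 14.01 to 23.4 CPM in F/M and 0.863 to 3.50 CPM in Cb. Of the 5 markers, Myh7 and Acta1 were measurable, with all F/M libraries above all Cb libraries, whereas Ckm and Actc1 had at most 5 and 2 counts in any library and Myh6 at most 3. Ckm was thus at or near 0 in both regions, too low to be compared, and the part of muscle tissue in Cox6a2 was not tested. Cox6a1, the widely expressed partner (ENSMUSG00000041697, chr5:115345642-115348981, minus strand; promoter above), had no such difference. It was at 94.0 to 113 CPM in F/M and 88.9 to 167 CPM in Cb at 1 month, with overlapping regions, and its log2 fold changes were 0.14, -0.22 and 0.17, of which only that at 2 months passed (SE 0.06, adjusted p = 0.0014 by edgeR).

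Other restricted forms were higher in Cb. Cox7a1, the heart and muscle form of Cox7a (ENSMUSG00000074218, chr7:30184144-30186078, plus strand), was at 0.609 to 1.03 CPM in F/M (median 0.807) and 2.18 to 4.17 CPM in Cb (median 2.41) at 1 month. The regions did not overlap at 1, 2 or 3 months, and the log2 fold change was 1.75, 1.27 and 1.89 (SE 0.18 at 1 month; adjusted p = 3.70e-07, 4.50e-06 and 1.15e-06 by edgeR). Cox7a1 and Cox6a2, both known as muscle forms, thus differed between regions in opposite directions. Cox6b2, known as a testis form (ENSMUSG00000051811, chr7:4751792-4753094, minus strand), was at 0.826 to 1.61 CPM in F/M and 2.99 to 4.69 CPM in Cb at 1 month. Its log2 fold change was 1.62 and 1.09 at the first ages, and at 3 months, with 1.63 to 2.27 CPM in F/M and 2.96 to 6.22 CPM in Cb, it passed as well. The regions overlapped at 2 months alone, where control F/M replicate 2 reached 3.62 CPM. Cox4i2, known from lung and as an oxygen-responsive form (ENSMUSG00000009876, chr2:152754173-152765037, plus strand), was higher by 0.85, 0.88 and 0.71, with overlapping regions at 2 and 3 months.

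The lowest isoforms were near the limit of counting. Cox7b2 was tested at 2 months alone, where 5 Cb and 2 F/M libraries reached the minimum level of 0.497 CPM, so that it entered through the region where it is high. It was at 0.115 to 1.19 CPM in Cb against 0.0631 to 0.531 CPM in F/M, with overlapping regions and a log2 fold change of 1.48 (SE 0.40), and it was also called with no filter (adjusted p = 2.33e-05 by edgeR). In controls alone it was at 0.42 (adjusted p = 0.456 by edgeR). Cox8b, the form of Cox8 that rodent heart and muscle express (ENSMUSG00000025488, chr7:140898945-140900446, minus strand), had a log2 fold change of 0.83 at 2 months (adjusted p = 0.088 by edgeR). It entered that test through the 3 Tpp1-/- Cb libraries alone, passed in 12 of 21 alternative settings and did not pass with no filter (0.85, adjusted p = 0.145 by edgeR). It was at 0.047 to 0.379 CPM in F/M, at 0.230, 0.0452 and 0.200 CPM in control Cb and at 0.764, 0.545 and 0.562 CPM in Tpp1-/- Cb. Only the Tpp1-/- Cb libraries lay above all F/M libraries, and the log2 fold change was 0.38 in controls alone (adjusted p = 0.647 by edgeR) and 1.27 in Tpp1-/- alone (adjusted p = 0.0215 by edgeR). At 3 months it was at 0.148 to 0.808 CPM in F/M and 0.418 to 0.683 CPM in Cb, with a log2 fold change of 0.17 (adjusted p = 0.646 by edgeR). Cox8a, its widely expressed partner (ENSMUSG00000035885, chr19:7215153-7217616, minus strand), did not pass at any age, at 0.11, 0.04 and 0.11. Among complex I subunits the largest differences at each age were those of Ndufab1, the acyl carrier protein of the mitochondrion, higher in Cb by 0.79, 0.47 and 0.86, and of Ndufb2, by 0.73, 0.54 and 0.68. Ndufab1 reached 24.8 CPM in F/M at 1 month and started at 31.4 CPM in Cb, and neither gene overlapped between regions at any age.

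**Figure D4:**
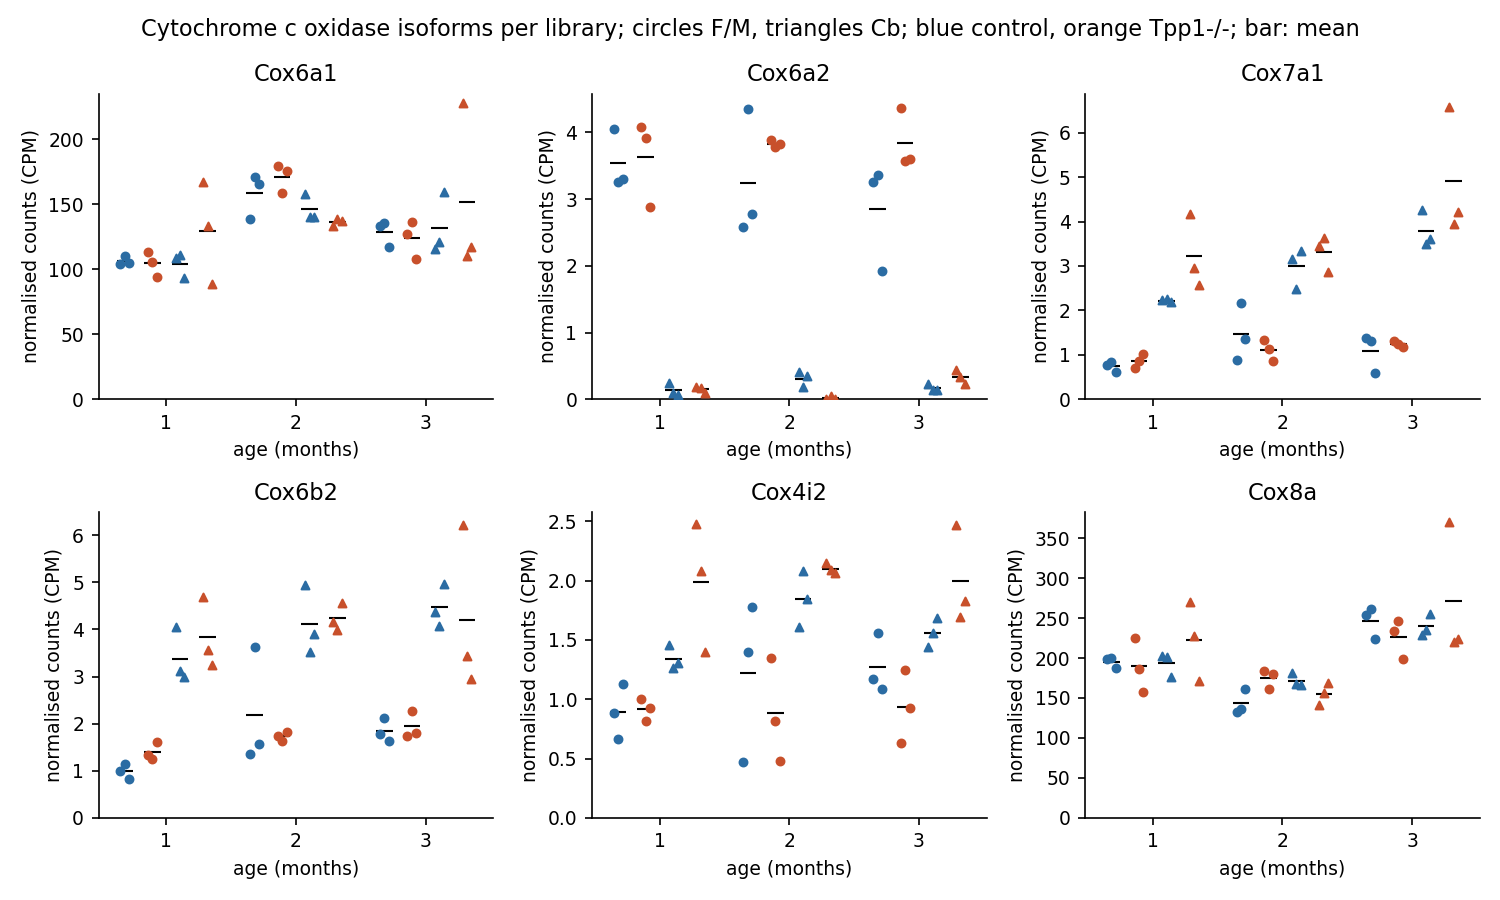
Normalised counts (CPM) of 6 complex IV genes in each library at 1, 2 and 3 months; circles are F/M, triangles Cb, blue control and orange Tpp1-/-, and bars are means of 3. Cox6a2 is at 1.92 CPM or more in every F/M library and at 0.439 CPM or less in every Cb library, Cox7a1 is higher in all Cb libraries, and Cox6a1 and Cox8a overlap between regions.

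Genes that act beside the respiratory chain were read from fixed lists, in order of age. Of all genes tested, 36.5, 38.6 and 36.7% were higher in Cb and 34.1, 39.3 and 33.4% lower. Of 16 nuclear ATP synthase genes tested, 12, 10 and 11 were higher in Cb at 1, 2 and 3 months and 1, 3 and 0 lower. Of 27 assembly factors of complexes II to IV, 11, 12 and 11 were higher and 6, 9 and 3 lower, with Cox20 at 0.95, 0.91 and 1.10 and Cox14 at 0.73, 0.69 and 0.92 on the log2 scale. Of 23 genes of mitochondrial transcription and transcript stability, 10, 11 and 11 were higher and 2, 3 and 1 lower, among them Polg2, a subunit of the mitochondrial DNA polymerase, at 1.44, 1.57 and 1.64, and Tfam, which packages mitochondrial DNA and starts its transcription, at 0.25, 0.38 and 0.31. Of 9 nuclear regulators, 6, 7 and 6 were higher and 0, 1 and 0 lower. Nrf1 was higher by 0.50, 0.44 and 0.77, and Gabpa by 0.43, 0.63 and 0.42. Ppargc1b was higher by 1.49, 2.01 and 1.00, whereas its relative Ppargc1a was at -0.04, 0.26 and -0.03 and passed at 2 months alone. Cyc1, the heme protein of complex III, was higher by 0.51, 0.37 and 0.55, and Cycs, cytochrome c itself, did not pass at any age.

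The comparison of Tpp1-/- with control mice used 3 libraries each per region and age, and a gene counted as differentially expressed (DEG) where its adjusted p was under 0.1 and its fold reached 1.5. Only 2 members met this in any of the 6 comparisons, both in Cb at 2 months. None of the 80 members tested at 1 month was a DEG in either region, where 0.0112% of all genes were DEGs in each. At 2 months 0 of 82 members were DEGs in F/M, against 0.737% of all genes (0.65% higher and 0.0871% lower in Tpp1-/-), and 2 of 82 in Cb, against 2.05% (1.8% lower). None of the 81 members tested at 3 months was a DEG, against 0.464% of genes in F/M and 0.859% in Cb. Without the fold minimum, 1 member was called in F/M at 2 months, against 3.17% of genes (2.26% higher), the same 2 in Cb, against 3.08% (2.72% lower), and 0 elsewhere, against 0.0112% of genes at 1 month in each region, and at 3 months against 0.488% in F/M and 0.952% in Cb. Of the comparisons with no member called, those at 1 month had 4 members in F/M and 30 in Cb at an unadjusted p under 0.05 by edgeR, against 1.89 and 7.66% of all genes, those at 3 months 2 and 0, against 5.94 and 6.49%, and DESeq2 and limma-voom also called 0 in all 4.

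The 2 DEGs were complex IV isoforms with few counts. Cox6a2 was counted 7, 4 and 7 times in control Cb at 2 months and 0, 1 and 0 times in Tpp1-/- Cb. The groups did not overlap, and the log2 fold change was -3.83 (SE 0.89, adjusted p = 0.022 by edgeR), which depends on how 0 counts are treated. The summed counts of 18 and 1 gave a ratio of control to Tpp1-/- of 19.8 with an exact 95% interval of 3.12 to 825 for counting error only. Without Tpp1-/- replicate 1 the adjusted p was 0.145 by edgeR. DESeq2 and the CPM filter called it too (adjusted p = 0.0320 by DESeq2 and 0.0238 by edgeR), and with only the 6 Cb libraries it had too few reads to be tested. The other region and age differed from this. In F/M at 2 months Cox6a2 was at 2.59, 4.35 and 2.78 CPM in controls and 3.89, 3.79 and 3.83 CPM in Tpp1-/-, and in Cb at 3 months it lay the other way, with 5, 3 and 3 counts in controls and 11, 8 and 5 in Tpp1-/-, which did not pass (log2 fold change 0.99, adjusted p = 0.777 by edgeR).

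Cox8b was the other. It was counted 4, 1 and 4 times in control Cb at 2 months and 21, 12 and 9 times in Tpp1-/- Cb. All Tpp1-/- libraries were above all controls, with a log2 fold change of 2.02 (SE 0.48, adjusted p = 0.026 by edgeR). These 3 Tpp1-/- libraries were the only ones of the 12 to reach the minimum level, so Cox8b entered the test through the group where it is high. With no filter on low counts the log2 fold change was 2.03 (adjusted p = 0.0105 by edgeR). The ratio of control to Tpp1-/- was 0.236, with an exact 95% interval of 0.101 to 0.491. The call was lost without control replicate 2 (adjusted p = 0.205 by edgeR) or without Tpp1-/- replicate 1 (adjusted p = 0.158 by edgeR). With only the 6 Cb libraries it was called (adjusted p = 0.0416 by edgeR), whereas DESeq2 gave it no adjusted p and the CPM filter left it out. At 3 months Cox8b was counted 9, 13 and 15 times in control and 16, 12 and 11 times in Tpp1-/- Cb, which overlap.

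Markers of other tissue moved with these values in Cb at 2 months. The summed level of 10 midbrain and thalamus markers was 218, 252 and 238 CPM in control and 157, 125 and 141 CPM in Tpp1-/- Cb, and that of 12 choroid plexus markers 1305, 1008 and 1118 CPM in control and 1833, 1655 and 1776 CPM in Tpp1-/- Cb. Neither pair of groups overlapped. The authors name all of these 12 choroid plexus markers except Kcnj13 among genes raised in Tpp1-/- at 2 months, so that difference is not an independent result. Among the midbrain markers Foxa1 was at 0 in all Cb libraries of that age and Slc6a3 at 0.226 CPM at most. Muscle markers summed to 3.05, 2.71 and 3.25 CPM in control and 1.97, 0.863 and 2.06 CPM in Tpp1-/- Cb, with Ckm at 0 in all of them. The part of these in the results was not tested.

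In F/M at 2 months the members lay on both sides of 0 by genome. All 7 mitochondrial genes had log2 fold changes above 0, from 0.07 to 0.34 with a median of 0.21, and 61 of 75 nuclear genes were below 0, with a median of -0.10, against 0.0039 for all genes. At an unadjusted p under 0.05, 22 of the 82 members would pass, 18 nuclear and 4 mitochondrial, against 16.9% of all genes, and after adjustment 1 did. That was Cox8a, at 133, 136 and 162 CPM in controls and 184, 161 and 180 CPM in Tpp1-/-, with ranges that overlap by less than 1 CPM. Its log2 fold change was 0.29 (SE 0.08, adjusted p = 0.097 by edgeR), against the direction of most nuclear genes, and it passed in 8 of 21 alternative settings. Uqcrc2, a core protein of complex III, had the next smallest p, at 225, 256 and 235 CPM against 188, 230 and 192 CPM (log2 fold change -0.23, adjusted p = 0.140 by edgeR), and mt-Nd5 followed with 0.34 (adjusted p = 0.142 by edgeR). Without control replicate 1, 26 members passed, 25 nuclear ones lower and 1 mitochondrial one higher, against 12.6% of all genes, and without Tpp1-/- replicate 2, 9 passed, 5 of them mitochondrial ones higher, against 5.81%. In the same comparison the median of other short protein-coding genes was -0.04 and that of ribosomal protein genes -0.03.

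Markers of other tissue moved in F/M at 2 months as well. Choroid plexus markers summed to 249, 642 and 394 CPM in controls and 754, 551 and 670 CPM in Tpp1-/-, which overlap, and 9 of the 12 were called higher. The authors name all of the 12 except Kcnj13 among genes raised in Tpp1-/- at 2 months, so these calls are not an independent result. Midbrain and thalamus markers summed to 233, 292 and 263 CPM in controls and 350, 310 and 324 CPM in Tpp1-/-, and forebrain markers to 1212, 1098 and 1179 CPM and 1049, 1038 and 1072 CPM, with no overlap in either sum. Of the 10 markers in each of these lists, 2 midbrain and thalamus ones were called higher and 1 forebrain one lower. The part of these in the results was not tested.

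In Cb at 1 month the split had the other sign. Of the 73 nuclear genes 70 were above 0, with a median of 0.23, and 6 of 7 mitochondrial genes were below 0, with a median of -0.14, against 0.0061 for all genes. Uqcr11 had the smallest p (log2 fold change 0.48), followed by Cox5a (0.40) and Uqcrc1 (0.28), all with an adjusted p of 0.630 by edgeR. The groups overlapped in each of the 3. Other short protein-coding genes had a median of 0.24 and ribosomal protein genes of 0.19, close to the nuclear members, and the share of short genes was 0.418 and 0.343% in Tpp1-/- replicates 1 and 2, against 0.273% in replicate 3 and 0.251 to 0.309% in controls. Without replicate 3, 41 members passed, 40 nuclear ones higher and 1 mitochondrial one lower, with medians of 0.38 and -0.20, while 8% of all 18305 genes passed. Without replicates 1 and 2, 0 members passed, with medians of -0.06 and -0.03, while 0.0317% of all genes passed.

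In F/M at 1 month the 2 groups of genes did not part. Medians were 0.10 for nuclear and 0.08 for mitochondrial members, with 62 of 73 nuclear genes above 0, against -0.0038 for all genes and 0.09 for other short genes. Control and Tpp1-/- libraries did not overlap in 35 of 80 members, or 43.8%, where 14.8% of all genes did not overlap. The differences were small: the lowest p was that of Ndufab1 (log2 fold change -0.40), followed by Ndufa3 (0.37) and Ndufa9 (0.20), all with an adjusted p of 1 by edgeR. Without the Tpp1+/- control, replicate 3, no member passed either.

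In Cb at 2 months the medians were -0.04 for nuclear and -0.09 for mitochondrial members, and 15 of 82 members did not overlap, against 18.1% of all genes. After Cox6a2 and Cox8b, the next smallest p was that of Ndufb6, a complex I subunit (-0.17, adjusted p = 0.538 by edgeR), whose groups overlapped. In F/M at 3 months the medians were -0.06 and 0.0013, with 18 of 81 members not overlapping against 24.1%, and the smallest p values were those of Ndufb4 (0.48), Ndufaf8 (-0.74) and Cox6a2 (0.44), with adjusted p of 0.552, 0.560 and 0.915 by edgeR. In Cb at 3 months the medians were 0.11 and -0.06, beside 0.12 for other short genes and 0.12 for ribosomal protein genes. There 4 of 81 members did not overlap, against 8.67% of all genes: Cox6a2 and Cox4i2 at 0.99 and 0.36, and Ndufs1 and Sdha at -0.14 and -0.14. The smallest p values were those of Cox6a2, Ndufs1 and Sdha, with adjusted p of 0.777, 0.823 and 0.879 by edgeR. That last comparison depended on the 2 libraries that stood apart. Without both, with 2 libraries a group in Cb, 40 members passed, 33 nuclear and 7 mitochondrial, all lower in Tpp1-/-, with medians of -0.16 and -0.24, while 20.9% of all 17428 genes passed. The F/M comparison and the interaction shared this fit and then held 14 and 11 members that passed, against 12.8 and 8.01% of genes. Without Tpp1-/- replicate 1 alone 6 members passed in Cb, against 2.66% of genes, and without control replicate 3 alone 1 did, against 1.53%.

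**Figure D5:**
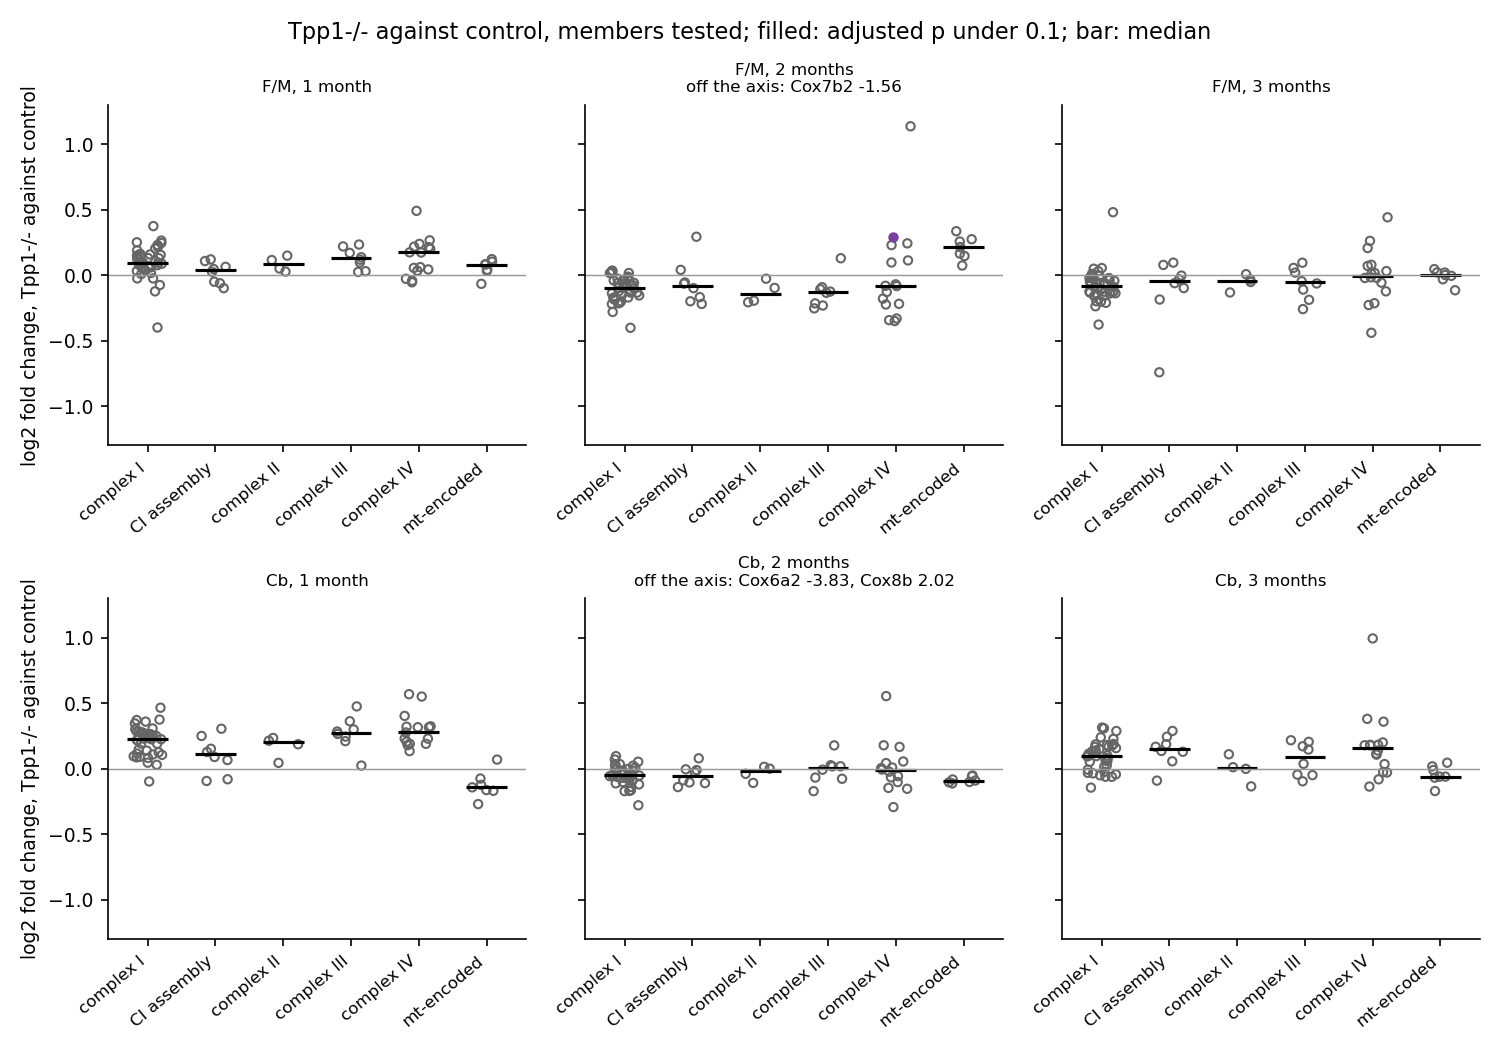
Log2 fold change of Tpp1-/- against control for each member tested, by complex, in F/M (top) and Cb (bottom) at 1, 2 and 3 months; filled points have an adjusted p under 0.1, open points do not, bars are medians, and values off the axis are named in the panel titles. In F/M at 2 months the mitochondrially encoded genes lie above 0 and most nuclear genes below it, and in Cb at 1 month the reverse.

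Whether the effect of genotype differed between regions was tested as an interaction. At 2 months 2 members passed, both with a lower value in Cb, where 2.97% of all genes passed, 2.79% in that direction. With a fold of 1.5 as well, Cox6a2 passed, against 2.21% of genes, 0.0813% higher and 2.12% lower. Cox6a2 had a Cb effect lower than its F/M effect by 4.08 on the log2 scale (adjusted p = 0.022 by edgeR), and Cox8a one lower by 0.44 (adjusted p = 0.069 by edgeR). Without Tpp1-/- Cb replicate 1 neither passed. In Cb, Cox8a was at 181, 167 and 166 CPM in controls and 141, 156 and 168 CPM in Tpp1-/-. At 1 month 0 members passed against 0.0% of all genes, with 2 at an unadjusted p under 0.05 against 1.94% of genes, and at 3 months 0 against 0.00581%, with 1 such member against 3.51% of genes, and DESeq2 and limma-voom also called 0 at both ages.

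Whether the genotype effect changed with age was tested in 1 model of all 36 libraries. In Cb, Cox6a2 passed between 1 and 2 months, by -4.04 (adjusted p = 0.059 by edgeR), and between 2 and 3 months, by 4.86 (adjusted p = 0.0030 by edgeR), where 1.28 and 1.44% of all genes did. Both rest on the low counts at 2 months. In F/M no member passed, against 0.0218 and 0.393% of all genes, with 9 and 4 members at an unadjusted p under 0.05, and limma-voom also called 0. Of the 79 other genes of the pathway tested at each age, 1 was called between genotypes in F/M at 2 months, where 3.17% of all genes were. Atp5f1, a subunit of the ATP synthase stalk, was lower there by 0.23 on the log2 scale (SE 0.06, adjusted p = 0.079 by edgeR). In the other 5 comparisons 0 of the 79 were called by edgeR, DESeq2 or limma-voom, where edgeR called 0.0112 to 3.08% of all genes. At an unadjusted p under 0.05 by edgeR, F/M had 2 of them at 1 month and 3 at 3 months, while Cb had 7, 3 and 2 at the successive ages.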

How the data were processed

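RNA of 36 mouse brain libraries was sequenced as single-end reads of 50 bases. The authors aligned reads with STAR to mm10 and deposited whole-number counts per gene from featureCounts, with GENCODE M21, M16 and M18 and strand settings 1, 2 and 1 at 1, 2 and 3 months, per the file headers. The headers also name options that split a multiply aligned read into fractions, but all values were whole. Depth was 10609896 to 29942380 counts a library. Counts were tested in edgeR 4.0.16 (R 4.3.3; TMM scaling, filterByExpr, 4 groups an age, quasi-likelihood F test, two-sided, Benjamini-Hochberg over all genes). A single model of all 36 libraries tested changes of the genotype effect between ages. CPM and RPKM were computed from counts with TMM factors. DESeq2 1.42.0, limma-voom 3.58.1, other scalings, filters, blocks, a sex covariate and left-out libraries were alternatives. The scripts were tested on simulated data. Intervals and floors (3 counts) cover counting error only. No source used here states how many mice each library came from, so p-values measure the spread between libraries. The columns were matched to samples by title, and no comparison columns were used.

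Correlations of the deviations of same-numbered libraries from their group means ran from -0.147 to 0.310 between genotypes and from -0.061 to 0.260 between regions. Between regions all 6 pairs at 1 month were over 0.1 (0.101 to 0.260), so the numbers were taken to pair Cb and F/M there, from the correlations and not from the labels, and at no other age or between genotypes. Members, lists and markers were chosen with earlier results of these data known. The genes named were the mitochondrial genes, members called between genotypes or in the interaction and age tests, the 3 members of smallest p in each genotype comparison, the 5 called members of largest difference in each direction between regions, core subunits and isoform pairs; 1 core subunit is not reported here. The lists of short and of ribosomal protein genes, and the leaving out of 2 Cb libraries at 1 and at 3 months, were added after seeing the data.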

Additional observations from a re-analysis of the deposited data

Results flagged for a closer look

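The effect of Tpp1-/- on Cox6a2 at 2 months was lower in Cb than in F/M by a log2 difference of -4.08 (adjusted p = 0.022 by edgeR), and it passed in 19 of 20 alternatives. The effect on Cox8a differed between the regions by -0.44 at 2 months (adjusted p = 0.069 by edgeR) and passed in 13 of 20 alternatives. Its log2 fold change in F/M was 0.29. The Cb effect on Cox6a2 changed by -4.04 from 1 to 2 months and by 4.86 from 2 to 3 months (adjusted p = 0.059 and 0.0030 by edgeR). The Cb counts behind these values were 7, 4 and 7 in controls and 0, 1 and 0 in Tpp1-/- at 2 months.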

How the results depend on the processing

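Of 351 counts and ratios recomputed under an alternative, 307 stayed within the limits set for no change and 44 moved. Of 2286 values of single members, 2152 kept direction and side of the threshold, 111 lost and 22 gained a call, and Cox5b in Cb against F/M at 2 months turned to -0.0455 in Tpp1-/- libraries alone. Causes were not tested. With no filter on low counts, the members called between genotypes were 3 in Cb at 1 month (0.582% of all genes), 10 in F/M at 2 months (3.46%) and 1 in F/M at 3 months (0.705%; also 1 with a fold of 1.5), 9 in the interaction at 2 months (2.44%), and, for the change of effect, 5 in Cb from 1 to 2 months (1.43%) and 1 in F/M at each step (0.54 and 0.707%). With only the 6 libraries of a comparison, 1 member was called in Cb (3.88% of genes) and 0 in F/M (0.574%) at 2 months, and 9 in F/M at 3 months (11.1%), 1 of them with a fold of 1.5. DESeq2 called 1 in Cb (3.16% of genes) and 4 in F/M (3.99%) at 2 months, the CPM filter 1 in Cb (3.25%), and RLE factors and library totals 0 in F/M (2.87 and 3.12%). A fold minimum of 1.2 or none left 1 in F/M at 2 months.

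Between regions, controls alone gave 4, 4 and 5 members with a fold of 1.5 (36.9, 39.3 and 37.7% of all genes), 23 and 21 nuclear members higher at 1 and 3 months, and 4 and 0 mitochondrial members lower at 2 and 3 months. At 3 months Tpp1-/- libraries alone gave 13 members with a fold of 1.5 (38.2%) and 1 mitochondrial member lower (29% of all genes lower). Library totals, which moved the median of all genes from 0.05 to 0.15, gave 16 (40.8%), 1 nuclear member lower and 0 mitochondrial members lower (28.4% of all genes lower). Without both 3-month Cb libraries that stood apart, 40 members were called between genotypes in Cb, 14 in F/M (1 with a fold of 1.5) and 11 in the interaction (20.9, 12.8 and 8.01% of all genes), and 9 nuclear members were lower in Cb than in F/M, and 12 were at 1 month without Tpp1-/- Cb replicates 1 and 2, where the log2 ratio differed between genotypes by -0.0317. Of the called members named at 1 month, 7 then lost the call between regions. By medians of levels, the log2 ratio differed by 0.2463 between regions at 2 months and by -0.1396 between genotypes in F/M at 3 months.

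In place of Cox8a (adjusted p = 0.101 by edgeR), the replicate block within region called 2 members in F/M at 2 months (3.52% of all genes), Uqcrc2 lower and mt-Nd5 higher (adjusted p = 0.0739 and 0.0384 by edgeR). The block that pairs same-numbered F/M and Cb libraries of 1 genotype, which no label gives as 1 mouse, called 3 in place of 2 in the interaction at 2 months (2.89%), with Cox5b added, and 49, 48 and 48 in place of 49, 49 and 50 between regions (72.1, 78.1 and 68% of all genes). At 1 month, where alone the numbers were taken to pair the regions, this block changed no count of calls.

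Leaving out 1 library at a time, the log2 ratio between regions ran from 0.6264 to 0.7474, 0.3518 to 0.4885 and 0.3271 to 0.4877 at 1, 2 and 3 months. Between genotypes it ran from 0.2322 to 0.5118, -0.0236 to 0.1234 and -0.1959 to 0.2973 in Cb, and from -0.0084 to 0.0758, -0.4025 to -0.185 and -0.0908 to -0.0283 in F/M. Between regions the members with a fold of 1.5 numbered 8 to 12, 6 to 8 and 6 to 14, the nuclear ones higher 34 to 51, 27 to 38 and 39 to 55, those lower 2 to 4, 10 to 14 and 2 to 6, and the mitochondrial ones lower 7, 6 to 7 and 1 to 2. Between genotypes the members called numbered 0 to 41, 0 to 2 and 0 to 6 in Cb (with a fold of 1.5, 0 to 4, 0 to 2 and 0) and 0, 0 to 26 and 0 to 1 in F/M (0, 0 and 0 to 1), and in the interaction 0, 0 to 9 and 0. Depth limits Cox6a2 in Cb, Cox7b2 and Cox8b, which held 0 to 25 counts in a Cb library.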

Other observations

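Cox8b in Cb at 1 month, which had too few reads for the test across genes, held 5, 0 and 1 counts in controls and 7, 3 and 8 in Tpp1-/-, a ratio of control to Tpp1-/- of 0.284 with an exact 95% interval of 0.0922 to 0.746 for counting error only. In F/M the same ratio was 0.373 (0.133 to 0.918) at 1 month, 0.447 (0.149 to 1.23) at 2 months and 0.806 (0.458 to 1.40) at 3 months, and in Cb it was 0.236 (0.101 to 0.491) at 2 months and 1.008 (0.625 to 1.62) at 3 months. Cox7b2 in F/M held 12, 28 and 14 counts in controls at 1, 2 and 3 months, against 3, 7 and 4 in Tpp1-/-. By library the counts were 5, 1 and 6 against 0, 3 and 0 at 1 month, which overlap. They were 7, 11 and 10 against 3, 1 and 3 at 2 months and 5, 4 and 5 against 1, 1 and 2 at 3 months. The ratio of control to Tpp1-/- was 4.26 (1.15 to 23.5), 3.06 (1.31 to 8.30) and 3.61 (1.13 to 15.1) (exact 95% intervals for counting error only). In Cb it held 41, 37 and 24 counts in controls against 27, 59 and 41 in Tpp1-/-, with ratios of 1.29 (0.776 to 2.19), 0.690 (0.444 to 1.06) and 0.622 (0.359 to 1.05). Its F/M difference was tested across libraries at 2 months alone, where it was not called (log2 fold change -1.56, adjusted p = 0.268 by edgeR).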
